A study of Mus musculus with 40 samples.

Results

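The S100 genes encode small calcium-binding proteins, and 10 of them were examined here in mouse hearts that overexpress interleukin 11 (IL11): *S100a1*, *S100a4*, *S100a6*, *S100a8*, *S100a9*, *S100a10*, *S100a11*, *S100a13*, *S100a16* and *S100b*. A gene was taken as a member by its symbol in the deposited tables, and all 10 were found once in each table, among 17646 genes in males and 17223 in females. All 10 also passed the filter for testing, which left 16931 genes in males and 16956 in females.

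S100 proteins carry a pair of EF-hand motifs, mostly act as dimers, and on binding calcium expose a surface that docks to partner proteins. Inside the cell they regulate the cytoskeleton, membrane traffic and calcium handling, and some are released and act on receptors such as RAGE and TLR4 as alarm signals. In the heart, S100A1 is the form known from cardiomyocytes, S100A4 and S100A6 are known from fibroblasts and macrophages, S100A8 and S100A9 are the abundant calcium-binding pair of neutrophils and inflammatory monocytes, and S100B is known from glia and Schwann cells.

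PolyA RNA from heart by the labels, and from left ventricle by the study's methods, was sequenced with 1 library per mouse. CM-Il11-Tg mice were heterozygous for the α-MHC-MerCreMer transgene (MCM), a tamoxifen-activated Cre driven by a cardiomyocyte promoter, and for *Rosa26-Il11*, from which Cre releases mouse *Il11*. Controls were littermates heterozygous for MCM and without *Rosa26-Il11*, so that every mouse carried the Cre, and the parental lines were on C57BL/6N and C57BL6/J backgrounds. Tamoxifen was given to 8-week-old mice at 20 mg/kg on 5 days, to controls and to the CM-Il11-Tg mice examined 1, 3 and 6 weeks later (induced). A further group of CM-Il11-Tg mice received no tamoxifen (uninduced). The labels call both the controls and the uninduced mice baseline. They give neither the age of the uninduced mice nor the time after tamoxifen of the controls. The same controls served each time, and induced mice were older at later times. Age, time after tamoxifen and duration of *Il11* therefore cannot be told apart. Groups had 4 mice of each sex, except for male controls and the male 6-week group with 3 each, because 2 male libraries carry labels that contradict each other and entered no comparison.

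Values are counts per 1000000 reads (CPM), scaled by the authors within each sex, and were compared within a sex only. Each male library held between 16663513 and 65333832 reads on the genes listed, and each female library between 19147947 and 30929192. *Il11* itself was 0 to 0.147 CPM in male controls, 16.5 to 23.3 in uninduced males and between 336 and 819 in induced males, and the corresponding ranges in females were 0 to 0.166, 15.5 to 49.1 and 328 to 614 CPM. The groups of either sex therefore followed their labels, and uninduced hearts carried more *Il11* than any control. The CPM of all genes summed to between 1063756 and 1193422 in male and between 1181923 and 1196278 in female controls, and after induction to between 817395 and 1165099 in males, which overlapped the controls, and between 848402 and 985319 in females, which did not. Rescaling every library to a sum of 1000000 moved the median log2 fold change of all genes against control by 0.17 to 0.31 in males and 0.31 to 0.35 in females, and the share of higher genes among the genes called went from 56.4 to 62.0% to 85.8 to 90.8% in males and from 50.8 to 53.7% to 88.9 to 92.3% in females. Rescaling by median of ratios instead moved the median log2 fold change by -0.0177 to -0.0098 in males and by 0.0081 to 0.0152 in females. The share of higher genes among the genes called was then 53.2 to 59.8% in males and 53.0 to 56.4% in females. All changes given below are relative to the authors' scaling.

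Per length, *S100a1* was the leading S100 transcript of the heart by a wide margin. Divided by the length of the canonical transcript, its level in controls was 353 ± 45.3 CPM per kb in males (SD, n = 3) and 414 ± 28.1 CPM per kb in females (SD, n = 4). *S100a16* followed at 23.5 ± 2.798 CPM per kb in males and 30.2 ± 2.42 CPM per kb in females, then *S100a6* at 14.3 ± 1.998 and 25.9 ± 3.57 CPM per kb. The order went on in both sexes with *S100a11*, *S100a10*, *S100a13*, *S100a9*, *S100a8* and *S100a4* and ended with *S100b* at 0.285 ± 0.0645 CPM per kb in males and 0.593 ± 0.1296 CPM per kb in females. Neighbours whose mean ± SD ranges met were *S100a11* and *S100a10*, and all of *S100a9*, *S100a8*, *S100a4* and *S100b*, in males. In females these were *S100a16* and *S100a6*, and *S100a9*, *S100a8* and *S100a4*. By 6 weeks *S100a6* stood in the second place, at 43.02 ± 1.21 CPM per kb in males and 61.7 ± 7.21 CPM per kb in females. The lengths are those of another release of the annotation than the authors counted on, so these levels are approximate. The order also rests on canonical transcripts of unlike length, 4412 bases for *S100a13*, 3419 for *S100a10* and 2328 for *S100a11* beside 1157 for *S100a16*. Undivided, the male control means of *S100a16*, *S100a10* and *S100a11* were 27.1, 23.5 and 22.3 CPM.

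**Figure D1:**
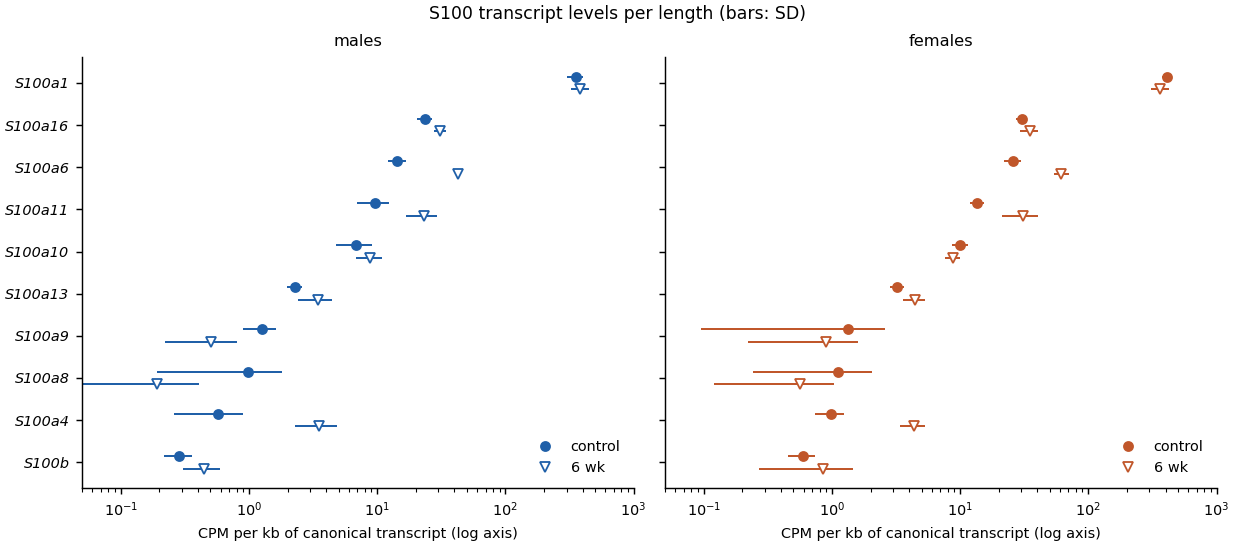
Level of each S100 transcript per kb of its canonical transcript (horizontal log axis, CPM per kb) in controls (filled circles) and 6 weeks after tamoxifen (open triangles), as mean and SD over 3 libraries a group in males and 4 in females, with bars cut at the left edge of the axis. *S100a1* stands above every other member in both groups, and the triangles of *S100a4* and *S100a6* lie to the right of their circles in both sexes.

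Of the 10 members, 9 lie on chromosome 3 and *S100b* lies on chromosome 10 (GRCm39 assembly, GENCODE annotation). The stretch from *S100a13* to *S100a9*, chr3:90416091-90603071, holds 7 of them (*S100a13*, *S100a1*, *S100a16*, *S100a4*, *S100a6*, *S100a8* and *S100a9*) among 17 annotated genes over 187 kb, and no other gene of that stretch was tested. *S100a11* and *S100a10* lie further along the chromosome, at chr3:93414382-93435293 and chr3:93462213-93474510. *S100a1* is read from the minus strand inside *S100a13*, which is read from the plus strand, and their exons share 2563 bases. The RNA libraries kept strand, but the strand setting of the counting is not given in the sources used here, so without it reads from the shared bases could not be told apart.

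The 250 bases before the start of the canonical transcript are printed for 4 members, because they rose together in the comparisons below or, for *S100a1*, because a motif lies there. Capitals mark the motif found. The windows are those of *S100a4* (chr3:90510825-90511074, plus strand), *S100a6* (chr3:90519890-90520139, plus strand), *S100a11* (chr3:93427427-93427676, plus strand) and *S100a1* (chr3:90421849-90422098, minus strand), all in GRCm39.
S100a4: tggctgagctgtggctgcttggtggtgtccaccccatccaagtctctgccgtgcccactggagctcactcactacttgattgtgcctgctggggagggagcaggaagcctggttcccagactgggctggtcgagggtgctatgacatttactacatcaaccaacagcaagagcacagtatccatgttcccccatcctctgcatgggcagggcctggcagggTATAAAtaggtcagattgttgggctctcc
S100a6: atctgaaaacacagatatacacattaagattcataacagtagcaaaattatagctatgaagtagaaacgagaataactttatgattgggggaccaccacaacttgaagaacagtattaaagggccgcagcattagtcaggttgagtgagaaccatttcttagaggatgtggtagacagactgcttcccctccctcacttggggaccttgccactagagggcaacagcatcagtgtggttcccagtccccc
S100a11: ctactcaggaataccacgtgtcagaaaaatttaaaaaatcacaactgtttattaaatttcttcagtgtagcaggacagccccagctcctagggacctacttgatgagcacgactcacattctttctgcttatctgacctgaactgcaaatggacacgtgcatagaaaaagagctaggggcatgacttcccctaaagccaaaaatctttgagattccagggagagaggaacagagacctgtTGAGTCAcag
S100a1: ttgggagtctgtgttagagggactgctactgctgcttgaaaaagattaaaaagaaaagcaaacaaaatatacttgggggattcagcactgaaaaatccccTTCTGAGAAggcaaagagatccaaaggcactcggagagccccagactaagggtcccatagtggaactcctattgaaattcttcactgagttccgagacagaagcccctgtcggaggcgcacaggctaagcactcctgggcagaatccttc
Both strands of the window of each member were searched for a few motifs. The TATA box TATAAA lay 29 bases before the start of *S100a4* and in 9.62% of 17753 promoters of the same length. The AP-1 motif TGANTCA lay 10 bases before the start of *S100a11* and in 5.14% of promoters. The STAT motif TTCNNNGAA lay 150 bases before the start of *S100a1* and in 6.60% of promoters. The *S100a6* window held none of these. A motif of NF-κB, also searched, lay before no member. A match says only that these letters are there.

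The first question was which S100 transcripts differ from controls once *Il11* is induced. Males had 5 members higher at 1 week (*S100a1*, *S100a4*, *S100a6*, *S100a13* and *S100a16*), 3 higher at 3 weeks (*S100a4*, *S100a6* and *S100a13*) and 5 higher at 6 weeks (*S100a4*, *S100a6*, *S100a11*, *S100a13* and *S100a16*), at an adjusted p under 0.05 (limma, Benjamini-Hochberg over all genes tested). Over all genes 18.9%, 13.2% and 16.2% were higher by the same rule. In males 1 member, *S100a9*, was lower at 3 weeks, beside 8.1% of all genes, and no member was lower at 1 or 6 weeks, beside 14.6% and 10.9%. Females had 5 members higher at 1 week (*S100a4*, *S100a6*, *S100a9*, *S100a11* and *S100a13*) and 4 higher at 3 and at 6 weeks (*S100a4*, *S100a6*, *S100a11* and *S100a13*), beside 15.3%, 16.8% and 21.7% of all genes. *S100a10* was lower in females at 1 and at 3 weeks, beside 13.1% and 14.5% of all genes, and no member was lower at 6 weeks, beside 21.0%. The median log2 fold change of the 10 members was 0.43, 0.13 and 0.39 in males and 0.50, 0.03 and 0.23 in females at 1, 3 and 6 weeks, where the median over all genes lay between -0.02 and 0.02.

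**Figure D2:**
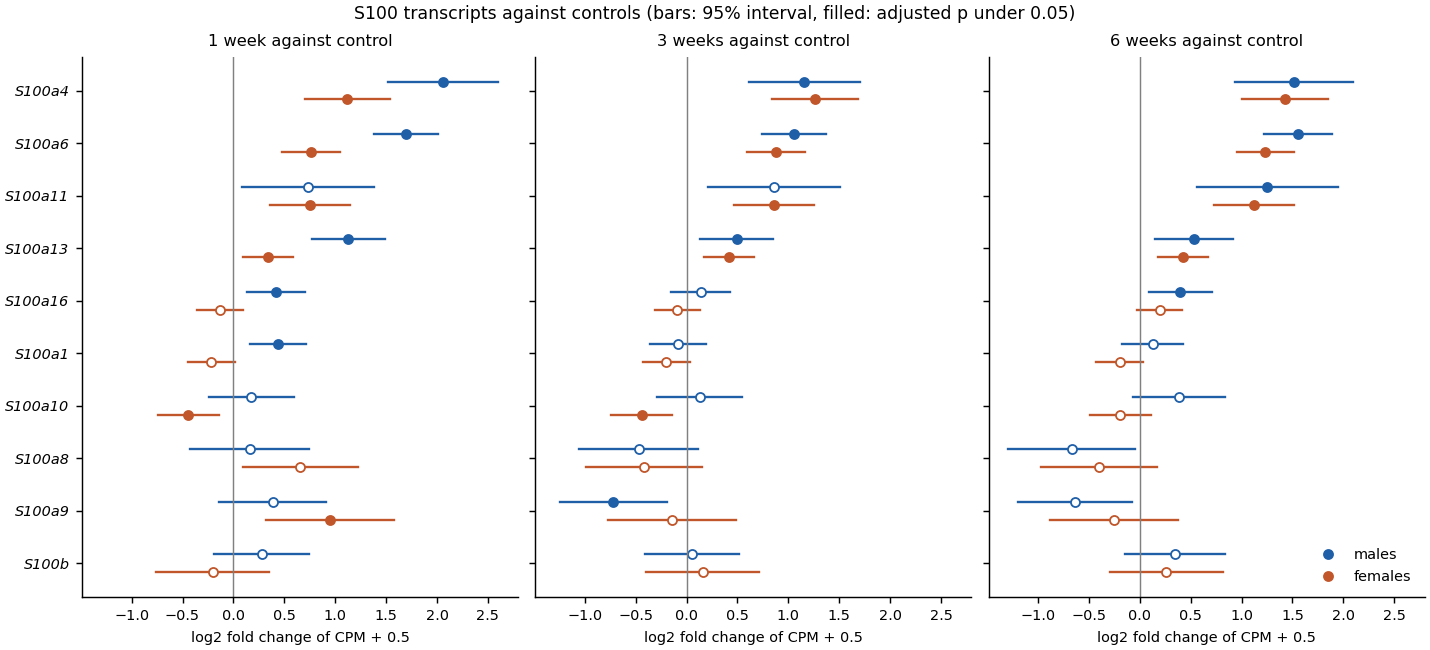
Log2 fold change of CPM + 0.5 against controls (horizontal axis) for each S100 transcript at 1, 3 and 6 weeks (panels from left to right) in males (blue) and females (orange), with 95% intervals from limma and filled points where the adjusted p was under 0.05. *S100a4* and *S100a6* are filled at all 3 times in both sexes, *S100a13* likewise at smaller changes, and *S100b* is open throughout.

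*S100a4* (chr3:90511074-90513354, plus strand), also called fibroblast-specific protein or metastasin, binds non-muscle myosin and marks motile fibroblasts and macrophages. From a low level, it had the largest log2 fold change of the family against controls in both sexes at each time except in males at 6 weeks, when that of *S100a6* was slightly larger. Males had 0.337, 0.114 and 0.407 CPM in the 3 controls and 0.738, 0.415, 0.229 and 0.507 CPM in the 4 uninduced hearts. After tamoxifen they had 2.14, 4.93, 2.26 and 2.25 CPM at 1 week, 0.887, 1.36, 1.48 and 1.25 CPM at 3 weeks and 2.31, 1.94 and 1.096 CPM at 6 weeks. Every induced male library stood above every control and uninduced library, and 1 library at 1 week stood far above the other 3. Females had 0.474, 0.387, 0.4503 and 0.665 CPM in controls, 0.619, 0.398, 1.37 and 1.09 CPM in uninduced hearts, and 1.21, 2.12, 1.55 and 1.82 CPM at 1 week. At 3 weeks they had 1.53, 1.82, 2.22 and 1.97 CPM and at 6 weeks 2.38, 2.66, 1.62 and 2.096 CPM. All induced females were above all controls, but 1 library at 1 week was below the highest uninduced library. Against controls the log2 fold change was 2.06 ± 0.26 (SE), adjusted p = 7.27e-06 in males at 1 week, and 1.12 ± 0.20 (SE), adjusted p = 2.58e-04 in females (limma, n = 3 to 4 per group). At 6 weeks it was 1.52 ± 0.28 (SE), adjusted p = 4.10e-04 in males and 1.43 ± 0.20 (SE), adjusted p = 1.04e-05 in females, with the 3-week values at 1.16 and 1.26 in the same order. Control libraries held only 3 to 25 reads on *S100a4*, so that the pseudocount of 0.5 pulls these fold changes toward 0.

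Here and in all results below, more cells of a type and more RNA per cell cannot be told apart, since whole tissue was sequenced. Markers of other cell types moved with *S100a4*, *S100a6*, *S100a11* and *S100a13*: of 12 macrophage markers 10 were higher in males and 11 in females at each of the 3 times, and of 10 fibroblast markers 8 to 9 were higher and 1 (*Gsn*) was lower. Their summed levels were 183 to 311 CPM for macrophage and 1579 to 2072 CPM for fibroblast markers in male controls, and 637 to 1007 and 5470.03 to 7415 CPM in males at 6 weeks. In females the macrophage sum went from 196 to 231 CPM in controls to 822 to 955 CPM at 6 weeks and the fibroblast sum from 2081 to 2461 to 7492 to 12910.4 CPM. Of 7 monocyte markers tested, 5 were higher in males and 4 in females at each time. Of 10 endothelial markers 3 to 7 were lower, of 12 cardiomyocyte markers 3 to 7 were lower, and none of either list was higher, but 0 to 4 endothelial and 1 to 2 cardiomyocyte markers were lower, and at most 1 of either list higher, with values scaled to a sum of 1000000. Over all genes, by the authors' scaling, 18.9%, 13.2% and 16.2% were higher in males and 15.3%, 16.8% and 21.7% in females. Lower were 14.6%, 8.1% and 10.9% in males and 13.1%, 14.5% and 21.0% in females. The part of these cell types in the S100 values was not tested.

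*S100a6* (chr3:90520140-90535843, plus strand), calcyclin, binds annexins and the calcyclin-binding protein and is linked to proliferation. Its adjusted p was the smallest of the family in all 6 comparisons of induced hearts with controls. Males had 10.98, 9.73 and 12.8 CPM in controls, 17.7, 14.6, 18.99 and 15.7 CPM in uninduced hearts and 33.2, 38.96, 31.98 and 45.5 CPM at 1 week. They had 25.5, 28.4, 23.3 and 18.3 CPM at 3 weeks and 34.6, 32.8 and 33.2 CPM at 6 weeks. The male groups formed steps, with controls lowest, uninduced hearts next, and 1 and 6 weeks highest, while the lowest 3-week library stood within the range of the uninduced ones. Females had 19.1, 17.1, 20.96 and 23.6 CPM in controls, 20.7, 22.2, 31.4 and 27.3 CPM in uninduced hearts and 29.8, 37.98, 31.1 and 39.3 CPM at 1 week. They had 36.1, 32.4, 42.2 and 38.7 CPM at 3 weeks and 41.3, 54.4, 46.3 and 50.4 CPM at 6 weeks. All induced females were above all controls, the highest uninduced library lay within the 1-week range, and 3 of 4 libraries at 6 weeks were above every library at 3 weeks. The log2 fold change against controls was 1.69 ± 0.15 (SE), adjusted p = 7.16e-08 at 1 week in males, and 1.05 and 1.55 at 3 and 6 weeks. In females it was 1.23 ± 0.14 (SE), adjusted p = 3.99e-07 at 6 weeks, and 0.76 and 0.88 at 1 and 3 weeks. All 6 values passed the threshold in limma.

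*S100a11* (calgizzarin) interacts with annexins A1 and A2 and takes part in membrane repair and growth control. Males had 24.5, 15.7 and 26.6 CPM in controls and 21.6, 20.6, 17.3 and 18.997 CPM in uninduced hearts. After tamoxifen they had 46.1, 55.9, 45.3 and 14.9 CPM at 1 week, 45.1, 48.6, 33.6 and 34.3 CPM at 3 weeks and 42.4, 49.5 and 68.7 CPM at 6 weeks. Except for replicate 4 at 1 week, which stood below every control, all induced male libraries were above all controls. That same library had the highest *Il11* of its group at 712 CPM and the highest *S100a6* and *S100a13*. Females had 28.03, 30.5, 32.7 and 35.7 CPM in controls, 31.02, 32.96, 52.5 and 34.03 CPM in uninduced hearts and 44.6, 66.6, 47.5 and 57.9 CPM at 1 week. They had 52.9, 52.4, 67.7 and 59.01 CPM at 3 weeks and 65.01, 96.7, 79.5 and 46.4 CPM at 6 weeks. All induced females were above all controls, and 1 uninduced library reached into the induced range.

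In females *S100a11* rose at all 3 times, by a log2 fold change of 0.75, 0.86 and 1.12 ± 0.19 (SE), adjusted p = 8.13e-05 (limma, the last at 6 weeks). In males the log2 fold change was 1.25 ± 0.33 (SE), adjusted p = 0.00847 at 6 weeks. At 1 and 3 weeks it was 0.73 (95% interval 0.08 to 1.38, adjusted p = 0.0773) and 0.86 (0.21 to 1.51, adjusted p = 0.0547) in limma, and neither passed. Without replicate 4 of the 1-week group the log2 fold changes were 1.15 at 1 week (adjusted p = 2.64e-04) and 0.86 at 3 weeks (adjusted p = 0.00217), and edgeR and DESeq2 on the recovered reads called both with all libraries kept (adjusted p of 0.0154 to 0.0499), as did scaling to a sum of 1000000 (log2 fold changes of 1.08 and 1.12). The 3-week value also passed without 1-week replicate 2 (adjusted p = 0.0442) or 6-week replicate 4 (adjusted p = 0.0463) and in a fit of those 2 groups alone (adjusted p = 0.00672). The male call at 6 weeks was lost without control replicate 3 (adjusted p = 0.0572).

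*S100a11* has processed copies elsewhere in the genome, and 2 of them, *Gm12854* and *Gm7665*, were listed as genes of their own in both tables. The coding sequence of *S100a11*, spliced from chr3:93414382-93435293, plus strand, and the copy at chr4:115924465-115924761, plus strand, are printed because they differ at only 3 of 297 bases, marked by capitals. Counted from the A of the start codon, with the *S100a11* base given before the base of the copy, the substitutions are T240C, G241A and C289T.
S100a11 coding sequence: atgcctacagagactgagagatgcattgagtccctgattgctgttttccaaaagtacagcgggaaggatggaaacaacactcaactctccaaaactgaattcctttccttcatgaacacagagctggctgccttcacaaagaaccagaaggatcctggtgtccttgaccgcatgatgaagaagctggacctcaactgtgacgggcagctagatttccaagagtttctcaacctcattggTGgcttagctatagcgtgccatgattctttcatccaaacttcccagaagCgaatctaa
Gm12854: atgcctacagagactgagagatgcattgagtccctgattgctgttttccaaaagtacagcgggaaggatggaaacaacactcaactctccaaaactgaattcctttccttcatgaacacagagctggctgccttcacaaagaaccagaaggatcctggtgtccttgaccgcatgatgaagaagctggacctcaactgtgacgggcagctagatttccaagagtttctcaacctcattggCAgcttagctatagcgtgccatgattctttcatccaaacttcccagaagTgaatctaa
*Gm12854* was 98.99% and *Gm7665* 98.65% identical to *S100a11* over 297 bases, so that short reads may have been assigned to any of the 3. In male controls *Gm12854* was 7.43 ± 1.82 CPM and *Gm7665* 5.96 ± 1.47 CPM (SD, n = 3), and at 6 weeks 16.5 ± 1.61 and 11.02 ± 1.698 CPM. In female controls they were 10.6 ± 1.097 and 8.02 ± 1.42 CPM (SD, n = 4), and at 6 weeks 22.4 ± 5.301 and 17.01 ± 5.66 CPM. Both copies were high and low in the same libraries as *S100a11*, including male replicate 4 at 1 week, where *Gm12854* was 5.73 and *Gm7665* 3.93 CPM. With the values of both copies added to *S100a11* every call of *S100a11* was kept, and the male log2 fold changes were 0.72, 0.84 and 1.19 at 1, 3 and 6 weeks. Over these 297 bases, reads of the gene and of its copies may not have been told apart. The match covers 297 bases of a canonical transcript of 2328 bases. The *S100a11* value is not the sum of the 3, which was 35.7 CPM in male controls beside 22.3 CPM for *S100a11* alone.

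**Figure D3:**
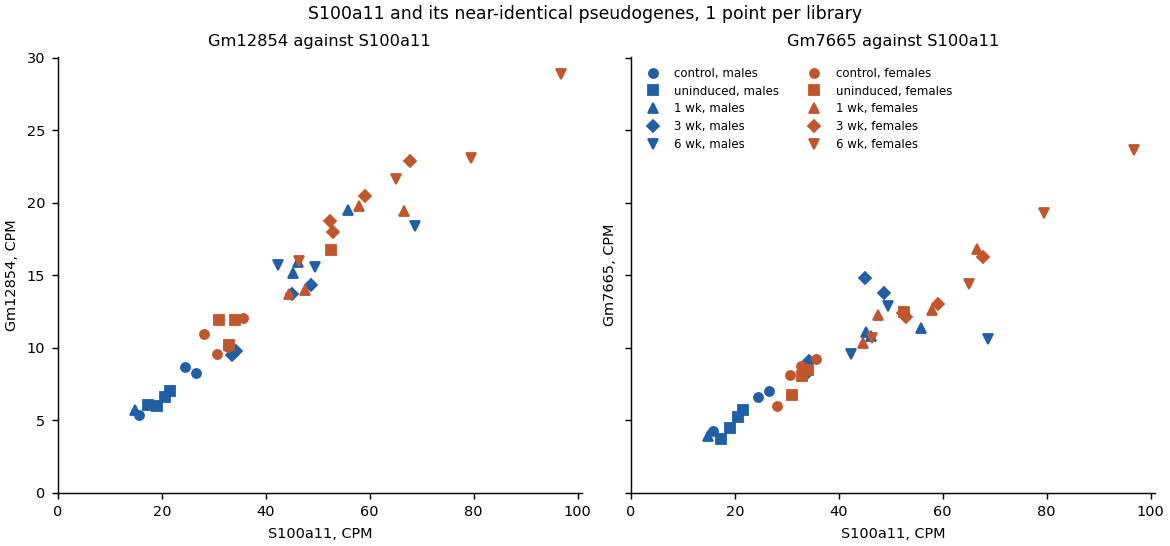
CPM of the pseudogenes *Gm12854* (left) and *Gm7665* (right) on the vertical axis against the CPM of *S100a11* on the horizontal axis, with 1 point per library, colour for sex and shape for group. In both panels the copies rise with *S100a11*, and the 1-week male library at 14.9 CPM of *S100a11* lies at the low end with the controls.

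*S100a13* takes part in the release of FGF1 and interleukin 1α, which lack a signal peptide. Males had 10.2, 8.75 and 11.3 CPM in controls, 12.2, 12.04, 13.3 and 11.6 CPM in uninduced hearts and 22.8, 23.7, 17.6 and 26.8 CPM at 1 week. They had 15.2, 16.8, 12.9 and 12.6 CPM at 3 weeks and 18.8, 16.03 and 10.5 CPM at 6 weeks. The 1-week libraries were above all controls and uninduced libraries, and 1 library at 6 weeks fell within the control range. Females had 13.99, 15.5, 12.3 and 15.2 CPM in controls, 14.2, 15.9, 16.9 and 14.7 CPM in uninduced hearts and 18.1, 18.5, 17.7 and 18.1 CPM at 1 week. They had 17.6, 21.4, 21.3 and 16.9 CPM at 3 weeks and 19.3, 22.9, 14.9 and 20.96 CPM at 6 weeks. The females at 1 week were close together and above all controls, and 1 library at 6 weeks fell within the control range.

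In males *S100a13* rose at 1 week by a log2 fold change of 1.13 ± 0.17 (SE), adjusted p = 5.56e-05 (limma). At 3 and 6 weeks it was 0.49 (adjusted p = 0.04697) and 0.53 (adjusted p = 0.0368), and in females 0.34, 0.42 and 0.43 (adjusted p = 0.0351, 0.00967 and 0.00648, limma). The male call at 3 weeks was lost when any of 11 of the 18 libraries was left out (control replicates 1 and 3, all 4 uninduced replicates, 1-week replicates 1 and 2, or 3-week replicates 1, 2 and 3, adjusted p of 0.051 to 0.208), with a pseudocount of 2 (adjusted p = 0.0536) and with median-of-ratios scaling (adjusted p = 0.0534). It was also lost with replicate number as a block in the fit (adjusted p = 0.0813). The male call at 6 weeks was lost without control replicate 1 or 3 or 6-week replicate 1 or 3 (adjusted p of 0.0705 to 0.179) and in a fit of those 2 groups alone (adjusted p = 0.14), and the female call at 1 week without control replicate 1 or 3 or any library of the 1-week group (adjusted p of 0.0581 to 0.113).

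*S100a16* is a widely expressed member linked to fat cell formation. Males had 27.7, 23.7 and 30.1 CPM in controls, 27.7, 28.4, 39.2 and 28.3 CPM in uninduced hearts and 32.2, 36.1, 36.9 and 40.03 CPM at 1 week. They had 33.7, 33.4, 27.7 and 25.2 CPM at 3 weeks and 39.3, 34.3 and 34.02 CPM at 6 weeks. All male libraries at 1 and 6 weeks were above all controls, while those at 3 weeks overlapped them. The male log2 fold change was 0.42 ± 0.14 (SE), adjusted p = 0.0249 at 1 week and 0.40 ± 0.15 (SE), adjusted p = 0.0495 at 6 weeks (limma), and at 3 weeks 0.14 (adjusted p = 0.536). In females the group means lay between 31.9 ± 3.55 CPM at 1 week and 40.4 ± 5.76 CPM at 6 weeks (SD, n = 4), and the log2 fold changes of -0.13, -0.09 and 0.20 did not pass in limma (95% intervals -0.36 to 0.09, -0.31 to 0.13 and -0.03 to 0.42). With replicate number as a block in the fit the male calls at 1 and 6 weeks were both lost (adjusted p = 0.051 and 0.07445). The male call at 1 week was also lost without control replicate 3 or 1-week replicate 3 or 4 (adjusted p of 0.0505 to 0.141). The male call at 6 weeks was lost without any of 12 of the 18 libraries (control 1 and 3, uninduced 1, 2 and 4, 1-week 2 and 3, 3-week 2 and 3, and all of the 6-week group, adjusted p of 0.0519 to 0.21), in edgeR (adjusted p = 0.0519), with median-of-ratios scaling (adjusted p = 0.058), without a filter (adjusted p = 0.0503) and in a fit of those 2 groups alone (adjusted p = 0.107). With values scaled to a sum of 1000000 the female log2 fold change at 6 weeks was 0.59 and passed (adjusted p = 3.53e-04).

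*S100a1* (chr3:90418340-90421848, minus strand) binds the ryanodine receptor, SERCA2 and titin in cardiomyocytes and raises their calcium cycling. Males had 331, 288 and 256 CPM in controls, 339, 336, 348 and 296 CPM in uninduced hearts and 346, 418, 366 and 451 CPM at 1 week. They had 305, 304, 260.1 and 232 CPM at 3 weeks and 309.9, 279.7 and 367 CPM at 6 weeks. The 1-week males were above all controls, and the later groups overlapped them. Females had 352, 347, 308 and 361 CPM in controls, 287, 325, 314 and 361 CPM in uninduced hearts and 311, 298, 286 and 281 CPM at 1 week. They had 264, 353, 309 and 272 CPM at 3 weeks and 317, 337, 238 and 311 CPM at 6 weeks. Among females all groups overlapped. In males at 1 week the log2 fold change was 0.44 ± 0.13 (SE), adjusted p = 0.0164 (limma), and the call was lost without control replicate 3 (adjusted p = 0.0545) or 4 (adjusted p = 0.0938). At 3 and 6 weeks it was -0.09 (95% interval -0.36 to 0.19) and 0.13 (-0.17 to 0.42). The female values of -0.22 (-0.45 to 0.01), -0.20 (-0.43 to 0.03) and -0.19 (-0.43 to 0.04) did not pass. In a fit of controls and 1-week females alone, the female value at 1 week passed (adjusted p = 0.0395).

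Known partners of S100A1 in cardiomyocytes were lower or did not pass, and most of these calls ended with values scaled to a sum of 1000000. With median-of-ratios scaling, of these calls only that of *Ttn* in females at 1 week ended (adjusted p = 0.054, limma). Of 5 partners measured in males 3, 2 and 2 were lower at 1, 3 and 6 weeks and of 4 measured in females 1, 2 and 3, and none was higher. Over all genes 14.6%, 8.1% and 10.9% were lower in males and 13.1%, 14.5% and 21.0% in females. The 5 in males include the ryanodine receptor gene *Ryr1*, which was measured in males only and did not pass at any time. *Ttn*, which encodes titin, was lower at each time in both sexes, and at 6 weeks the male value was -0.56 (adjusted p = 0.0236) and the female value -0.91 (adjusted p = 9.41e-04) on the log2 scale in limma. *Ryr2*, the cardiac ryanodine receptor, was lower in males at all 3 times and in females at 3 and 6 weeks, with 6-week values of -0.90 (adjusted p = 0.00208) and -0.63 (adjusted p = 0.00408). For *Atp2a2*, which encodes SERCA2, the 6-week values did not pass, with -0.51 (adjusted p = 0.123) for males and -0.17 (adjusted p = 0.397) for females. Only 1, 0 and 1 of the 5 were lower in males and 0, 0 and 1 of the 4 in females with values scaled to a sum of 1000000. *Ttn*, *Ryr2*, *Atp2a2* and *Pln* also count among the cardiomyocyte markers above.

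*S100a10*, also called p11, forms a tetramer with annexin A2 that places plasminogen activators and ion channels at the cell surface, and it does not bind calcium. Females had 37.8, 33.8, 28.6 and 37.3 CPM in controls, 32.5, 25.2, 40.6 and 28.97 CPM in uninduced hearts and 21.1, 28.6, 22.6 and 28.7 CPM at 1 week. They had 22.9, 22.3, 29.97 and 25.9 CPM at 3 weeks and 28.03, 33.8, 32.4 and 26.1 CPM at 6 weeks. Of the females, 2 of 4 at 1 week and 3 of 4 at 3 weeks were below all controls, and the other 3 lay just above the lowest control. Female *S100a10* fell by 0.44 ± 0.14 at 1 week (SE, adjusted p = 0.0249) and by 0.44 ± 0.14 at 3 weeks (adjusted p = 0.0244) on the log2 scale in limma, and at 6 weeks the value was -0.19 (adjusted p = 0.299). Both calls were lost when values were scaled to a sum of 1000000 (adjusted p = 0.63 and 0.668), without control replicate 1 or 4, and without replicate 1 or 3 of the 1-week group or 1 or 2 of the 3-week group (adjusted p of 0.0676 to 0.0859). Males had 27.2, 15.5 and 27.8 CPM in controls and 24.1, 37.002 and 29.8 CPM at 6 weeks, and all their groups overlapped. The male log2 fold changes were 0.17, 0.13 and 0.39 with 95% intervals of -0.24 to 0.59, -0.29 to 0.55 and -0.06 to 0.83, and none passed.

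The annexins, to which S100A10, S100A11, S100A6 and S100A4 bind, had members higher throughout. Of 8 annexins and *Ahnak*, 5, 4 and 4 were higher in males and 5, 4 and 5 in females at 1, 3 and 6 weeks, and *Anxa1*, *Anxa2*, *Anxa4* and *Anxa7* were among them each time. Over all genes 18.9%, 13.2% and 16.2% were higher in males and 15.3%, 16.8% and 21.7% in females. *Anxa1*, which pairs with S100A11, had log2 fold changes of 1.37, 1.27 and 1.43 in males and 1.27, 1.36 and 1.75 in females. *Anxa2*, the partner of S100A10, had 1.098, 0.91 and 1.07 in males and 0.66, 0.76 and 1.19 in females, at adjusted p of at most 0.01195 in limma. *Anxa2* and *S100a10* thus moved differently in females at 1 and 3 weeks, though this difference was not tested. *Ahnak*, the scaffold of the S100A10 and annexin A2 complex, had log2 fold changes between -0.75 and -0.13 that did not pass. Only *Anxa11* was lower in any of these comparisons, in males at 1 week with a log2 fold change of -0.36 (adjusted p = 0.0387, limma), and with values scaled to a sum of 1000000 it was close to 0 and did not pass.

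*S100a8* (chr3:90567118-90578128, plus strand) and *S100a9* (chr3:90599931-90603071, minus strand) form calprotectin, which binds zinc and manganese and signals through TLR4 when released. Both were near the detection limit, with 0 to 67 reads per library. Males had 0.487, 0.833 and 0.8304 CPM of *S100a9* in controls, 0.184, 0.119, 0.115 and 0.37995 CPM in uninduced hearts and 1.67, 0.876, 1.496 and 0.524 CPM at 1 week. They had 0.193, 0.512, 0.131 and 0.147 CPM at 3 weeks and 0.267, 0.459 and 0.1399 CPM at 6 weeks. Male libraries at 1 week were above all uninduced ones and overlapped the controls, and those at 3 and 6 weeks were below all controls except for replicate 2 at 3 weeks. All uninduced male libraries were below all controls too. Females had 1.81, 0.484, 0.3502 and 0.388 CPM of *S100a9* in controls, 0.571, 0.398, 0.441 and 0.445 CPM in uninduced hearts and 2.38, 0.818, 1.798 and 2.21 CPM at 1 week. They had 0.595, 0.456, 0.443 and 0.676 CPM at 3 weeks and 0.793, 0.902, 0.211 and 0.154 CPM at 6 weeks. Control replicate 1 stood far above the other 3 controls and within the 1-week range, and without it the groups at 1 week and control did not overlap.

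*S100a9* rose in females at 1 week with a log2 fold change of 0.95 ± 0.30 (SE), adjusted p = 0.02305 (limma), and the later values of -0.14 (adjusted p = 0.766) and -0.26 (adjusted p = 0.517) did not pass. In males the values were 0.38 (adjusted p = 0.253) at 1 week, -0.72 (adjusted p = 0.0461) at 3 weeks, which passed, and -0.63 (adjusted p = 0.0882) at 6 weeks. The female call at 1 week was lost in edgeR (adjusted p = 0.0784), in DESeq2 (adjusted p = 0.064), in a fit of those 2 groups alone (adjusted p = 0.0514), and without control replicate 2, 3 or 4 or 1-week replicate 1, 3 or 4 (adjusted p of 0.0501 to 0.0745). The male call at 3 weeks was lost without any of 10 of the 18 libraries (control 3 and 4, uninduced 1, 2 and 3, 1-week 2, 3-week 1, 3 and 4, and 6-week 1, adjusted p of 0.0507 to 0.164), with a pseudocount of 2 (adjusted p = 0.078) and with values scaled to a sum of 1000000 (adjusted p = 0.0881). It was also lost with replicate number as a block in the fit (adjusted p = 0.0694).

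*S100a8* was 0.1499, 0.909 and 0.391 CPM in male controls, 0.111, 0, 0.287 and 0.228 CPM in uninduced males and 0.937, 0.738, 0.299 and 0.337 CPM in males at 1 week. It was 0.193, 0.477, 0 and 0.1104 CPM at 3 weeks and 0.0486, 0.212 and 0.0233 CPM at 6 weeks. The male controls alone spread over most of the range of the other groups. Females had 1.16, 0.242, 0.2502 and 0.554 CPM in controls, 0.619, 0.228, 0.309 and 0.162 CPM in uninduced hearts and 1.17, 0.521, 1.21 and 1.56 CPM at 1 week. They had 0.335, 0.19000, 0.363 and 0.118 CPM at 3 weeks and 0.476, 0.4296, 0.211 and 0 CPM at 6 weeks. Again control replicate 1 was the highest of its group, and 3 of 4 libraries at 1 week were above it. The 3 libraries with 0 reads allow up to 0.0889, 0.0986 and 0.0925 CPM, which is 3 reads each and covers counting error only. No change of *S100a8* against controls passed in limma, with log2 fold changes of 0.16, -0.47 and -0.67 in males (adjusted p = 0.693, 0.262 and 0.106) and 0.66, -0.42 and -0.40 in females (adjusted p = 0.0775, 0.264 and 0.245). Leaving out control replicate 1 (adjusted p = 0.0161) or 1-week replicate 2 (adjusted p = 0.027) turned the female value at 1 week into a call, and scaling to a sum of 1000000 did so too (adjusted p = 0.0165). Replicate number as a block in the fit also turned it into a call (adjusted p = 0.0497). The male value at 6 weeks passed without control replicate 1 (adjusted p = 0.0411) and in DESeq2 (adjusted p = 0.0485).

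Of 15 neutrophil markers, *Il1r2*, *Csf3r* and *Mmp8* were tested and all 3 were higher at each time in both sexes, and *Fpr1* was listed in males only. The other 11, with the defining *Ly6g*, *Cxcr2*, *Mpo* and *Elane*, were not among the genes listed in either sex. Over all genes 18.9%, 13.2% and 16.2% were higher in males and 15.3%, 16.8% and 21.7% in females. The neutrophil sum therefore rests on 4 genes in males and 3 in females, those listed. The neutrophil sum was 1.05 to 2.296 CPM in male controls and 3.15 to 5.67, 4.897 to 6.71 and 5.47 to 7.18 CPM at 1, 3 and 6 weeks. In females it was 0.629 to 2.37 CPM in controls and 3.53 to 6.27, 5.05 to 5.91 and 4.13 to 6.88 CPM at the 3 times. The sum thus stayed high at 3 and 6 weeks, when the means of *S100a8* in both sexes and of *S100a9* in males were below those of controls. For female *S100a9* that direction rested on control replicate 1. The control mean was 0.758 CPM with it and 0.407 ± 0.0689 CPM (SD, n = 3) without it, beside 0.543 CPM at 3 weeks and 0.515 CPM at 6 weeks. Uninduced means were low as well. Male *S100a9* had 0.199 CPM in uninduced hearts, beside 0.246 and 0.289 CPM at 3 and 6 weeks. *S100a8* had 0.156 CPM in uninduced males, beside 0.195 and 0.0946 CPM, and 0.329 CPM in uninduced females, beside 0.251 and 0.279 CPM. The neutrophil sum was 1.39 to 2.15 CPM in uninduced males and 1.17 to 2.52 CPM in uninduced females. All 5 erythroid markers were higher in females at 1 week and in no other comparison with controls, with a sum of 1396 to 2325 CPM in female controls and 3131 to 8346 CPM at 1 week. The part of either cell type in the calprotectin values was not tested.

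**Figure D4:**
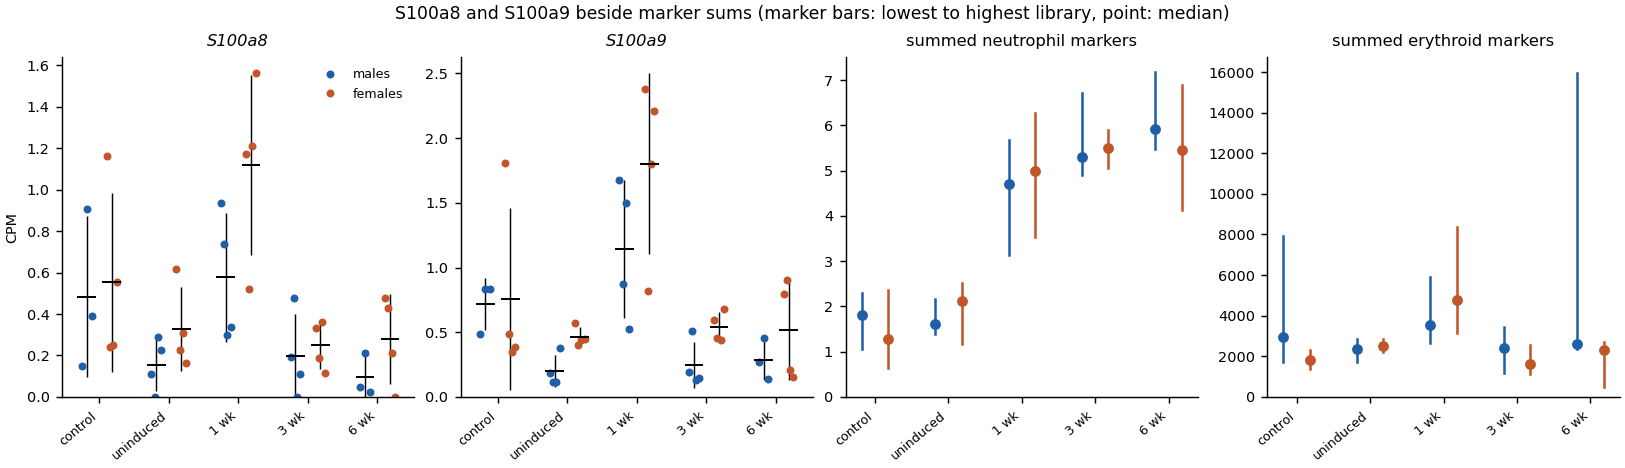
CPM of *S100a8* and *S100a9* by library (left panels, points, with mean and SD as black bars) beside the summed CPM of the listed neutrophil and erythroid markers (right panels, median point and lowest to highest library) in each group, in males (blue) and females (orange). The means of *S100a8* and *S100a9* are highest at 1 week in both sexes, whereas the median neutrophil sum is higher still at 3 and 6 weeks.

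Receptors for released S100 proteins were higher in part. Of 9 receptors 4, 4 and 6 were higher in males and 5, 4 and 5 in females at 1, 3 and 6 weeks, and 1 was lower each time except for 2 in females at 3 weeks. Over all genes 18.9%, 13.2% and 16.2% were higher in males and 15.3%, 16.8% and 21.7% in females. Lower were 14.6%, 8.1% and 10.9% in males and 13.1%, 14.5% and 21.0% in females. *Cd14*, *Cd33*, a receptor of S100A9, and the proteoglycan *Sdc1* were higher each time in both sexes, and at 6 weeks *Sdc1* stood 2.77 above male and 2.93 above female controls on the log2 scale (adjusted p = 2.79e-08 and 9.95e-09, limma). *Tlr4* was higher in females at all 3 times (0.86, 0.60 and 1.08) and in males at 6 weeks (0.56, adjusted p = 0.0466). It was also higher in uninduced females than in controls (0.76, adjusted p = 0.0148, limma), and against uninduced hearts it was not called in females at any time. *Ager*, which encodes RAGE, passed in males at 6 weeks alone (0.59, adjusted p = 0.04599), with female values between -0.03 and 0.05. *Bsg*, which encodes basigin, was lower each time in both sexes, with -0.78 in males and -0.68 in females at 6 weeks, but with values scaled to a sum of 1000000 it passed only in males at 6 weeks and females at 3 weeks. *Cd36*, a fatty acid transporter, was lower in females at 3 weeks (-0.54, adjusted p = 0.00412, limma), and this call was lost with values scaled to a sum of 1000000 (adjusted p = 0.223). The male *Tlr4* call at 6 weeks ended with median-of-ratios scaling (adjusted p = 0.0516).

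Among 12 measured partners of other members, 2 were higher and 2 lower in males at each time, and 3, 4 and 5 were higher and 3, 3 and 2 lower in females. Over all genes 18.9%, 13.2% and 16.2% were higher and 14.6%, 8.1% and 10.9% lower in males, by the same rule. In females 15.3%, 16.8% and 21.7% were higher and 13.1%, 14.5% and 21.0% lower. *Plat*, the tissue plasminogen activator that S100A10 holds at the surface, was higher throughout, and stood 1.00 above male and 1.55 above female controls at 6 weeks (adjusted p = 6.10e-04 and 1.10e-07, limma). *Myh9*, the non-muscle myosin heavy chain that S100A4 binds, was higher at 3 and 6 weeks in both sexes (0.40 and 0.74 at 6 weeks). *Fkbp4*, a co-chaperone bound by S100A1 and S100A6, was lower throughout (-0.72 and -0.48 at 6 weeks), and *Kcnk3*, a potassium channel carried by S100A10, was lower in all but males at 6 weeks (-0.52, adjusted p = 0.0855). With values scaled to a sum of 1000000 *Fkbp4* remained lower in males at 6 weeks alone and *Kcnk3* in females at 3 weeks alone.

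*S100b* (chr10:76085090-76097159, plus strand) was low, and none of its changes passed. Males had 0.412, 0.606 and 0.423 CPM in controls and 0.5099, 0.777 and 0.979 CPM at 6 weeks, and females had 1.21, 1.16, 0.7505 and 0.887 and 0.951, 2.88, 1.05 and 0.832 CPM. The groups overlapped in both sexes, and 1 female library at 6 weeks stood far above the other 3. The log2 fold change against controls at 6 weeks was 0.34 in males (95% interval -0.15 to 0.84) and 0.26 in females (-0.29 to 0.82). Schwann cell markers, beside which S100B is often used, were in part higher, 3, 4 and 4 of 9 in males and 4, 4 and 6 of 10 in females, with *Scn7a*, *Mal* and *Cnp* among them each time. Over all genes 18.9%, 13.2% and 16.2% were higher in males and 15.3%, 16.8% and 21.7% in females. Of the other S100 genes, *S100a7a* was listed in males at 0 to 0.427 CPM and was too low to test. The other 7 were not among the genes listed in either sex.

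**Figure D5:**
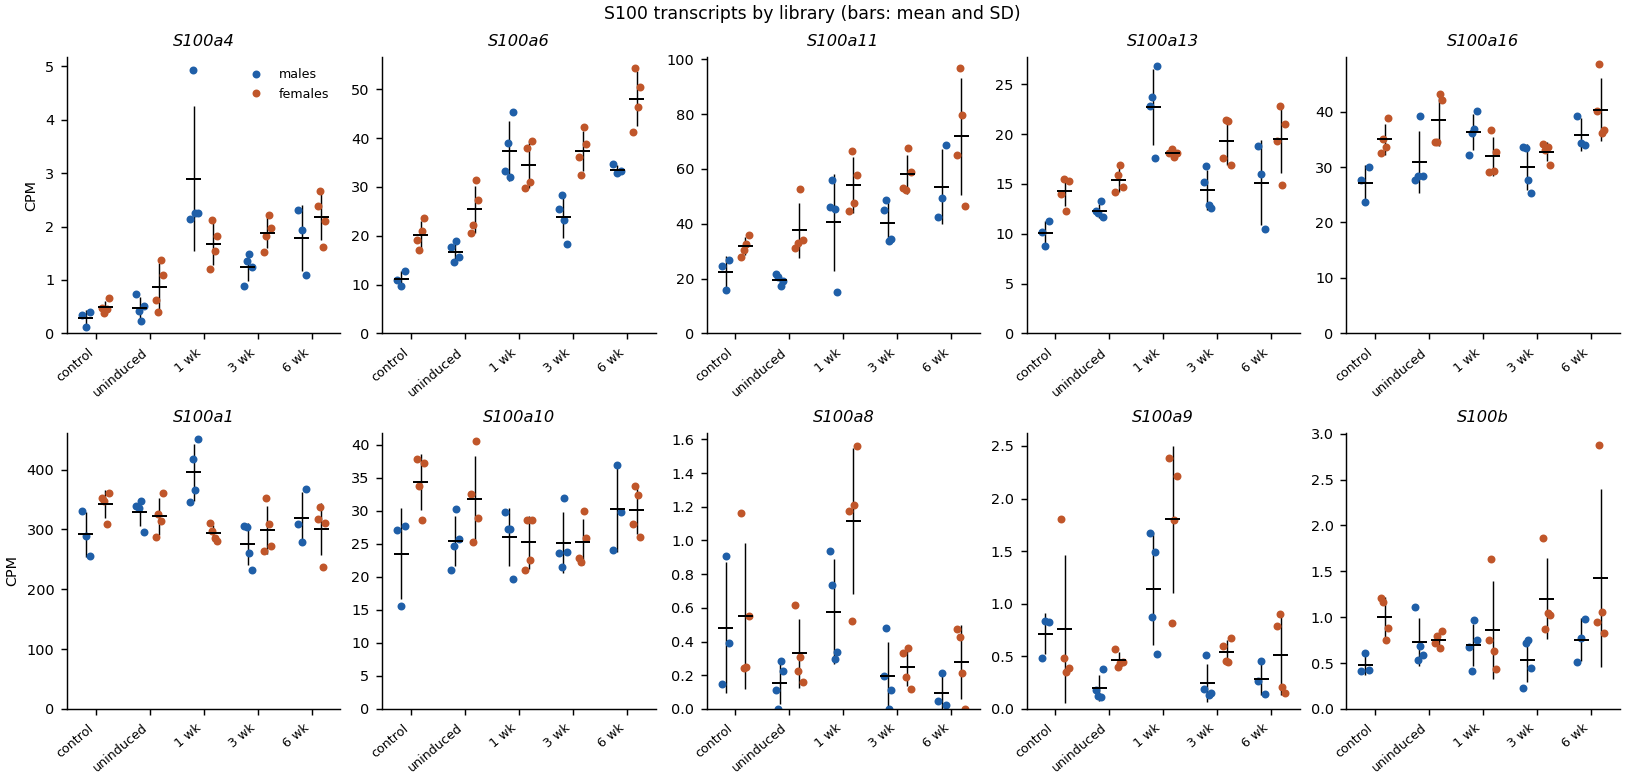
CPM of the 10 S100 transcripts (vertical axes, 1 panel each, starting at 0) in every library of the 5 groups, in males (blue) and females (orange), with the mean and SD as black bars. In *S100a4* and *S100a6* all induced libraries lie above all controls in both sexes, and 1 male library at 1 week lies apart in each of *S100a4* and *S100a11*.

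Uninduced hearts were compared with controls as the baseline of the transgenic line. They differ from controls both in carrying *Rosa26-Il11* and in having had no tamoxifen, and the parts of the transgene and of tamoxifen cannot be told apart. None of the 10 members passed against controls in either sex in limma, beside 0.561% of all genes called higher and 0.0354% called lower in males and 2.41% and 0.466% in females. Without adjustment 2 members in males and 1 in females had p under 0.05, edgeR called 0 in either sex and DESeq2 called 1 in males and 0 in females. Shares of all genes by these 3 rules are not given here, so these counts have no background to be read against. The 1 call in DESeq2 was *S100a6*, with a log2 fold change of 0.57 in DESeq2 (adjusted p = 0.0417) against 0.56 ± 0.15 in limma (adjusted p = 0.121), and all 4 uninduced males were above all 3 controls. Male *S100a9* had -0.80 against controls in limma (adjusted p = 0.203). Its highest uninduced library, at 0.38 CPM, was below its lowest control, at 0.487 CPM. Against uninduced hearts male *S100a9* had 0.08 at 3 weeks (adjusted p = 0.874) and 0.17 at 6 weeks (adjusted p = 0.677) in limma. In females *S100a6* had 0.31 (95% interval 0.03 to 0.60). Of the 12 macrophage markers 9 were higher in uninduced females and 0 in uninduced males than in controls, with sums of 302 to 457 CPM and 270.3 to 366 CPM.

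Against uninduced hearts, which share the transgenes, *S100a4* and *S100a6* were higher at all 3 times in both sexes. In males 5 members were higher at 1 week (*S100a4*, *S100a6*, *S100a9*, *S100a11* and *S100a13*), beside 12.1% of all genes, and *S100a4*, *S100a6* and *S100a11* were higher at 3 and 6 weeks, beside 10.6% and 13%. In females 4 were higher at 1 week (*S100a4*, *S100a6*, *S100a8* and *S100a9*), beside 8.32% of all genes, and *S100a4*, *S100a6* and *S100a11* at 3 and 6 weeks, beside 10.6% and 13.7%. No member was lower, while 6.66%, 5.46% and 7.4% of all genes were in males and 4.26%, 6.15% and 9.08% in females. At 6 weeks the log2 fold change of *S100a4* was 1.22 ± 0.26 (SE), adjusted p = 0.00232 for males and 1.02 ± 0.20 (SE), adjusted p = 8.43e-04 for females, and *S100a6* had 0.99 (adjusted p = 8.43e-05) and 0.92 (adjusted p = 3.68e-05) in limma. *S100a11* had 1.401 (adjusted p = 0.00312) and 0.91 (adjusted p = 0.00138) at 6 weeks.

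At 1 week *S100a9* stood 1.18 ± 0.23 (SE), adjusted p = 0.00128 above uninduced hearts on the log2 scale in males and 1.198 ± 0.30 (SE), adjusted p = 0.01102 in females (limma). Female *S100a8* stood 0.95 above them (adjusted p = 0.02503), and in males the value was 0.69 (adjusted p = 0.0693). The female *S100a8* call was lost with a pseudocount of 0.1 (adjusted p = 0.062), in edgeR (adjusted p = 0.0739) and without uninduced replicate 2 or 4 or 1-week replicate 1, 3 or 4 (adjusted p of 0.0579 to 0.0844). Calls at 1 week of *S100a4* and *S100a6* in females were lost without uninduced replicate 1 or 2 or 1-week replicate 2 or 4 (adjusted p of 0.0621 to 0.118) and in fits of those 2 groups alone (adjusted p = 0.123 and 0.114). Male *S100a11* at 1 week (0.88, adjusted p = 0.0383) was lost without any library of these groups but 1-week replicate 4 (adjusted p of 0.0539 to 0.143), and in a fit of those 2 groups alone (adjusted p = 0.0659).

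Male calls at 3 weeks against uninduced hearts rested on single libraries as well. *S100a4* was lost without uninduced replicate 2 or 3 or 3-week replicate 2 or 3 (adjusted p of 0.0502 to 0.0742) and with a pseudocount of 2 (adjusted p = 0.062). *S100a6* was lost without uninduced replicate 2 or 4 or 3-week replicate 1 or 2 (adjusted p of 0.0528 to 0.0748), and *S100a11* without uninduced replicate 3 or 4 or 3-week replicate 1 or 2 (adjusted p of 0.0502 to 0.0649). Female *S100a11* at 3 weeks (0.64, adjusted p = 0.0226) was lost without uninduced replicate 1, 2 or 4 or 3-week replicate 3 or 4 (adjusted p of 0.0539 to 0.0837). Conversely, female *S100a11* at 1 week (0.53, adjusted p = 0.0707) passed without uninduced replicate 3 (adjusted p = 0.0102) or 6-week replicate 2 or 4 (adjusted p of 0.0345 to 0.0483). *S100a13* in females passed without uninduced replicate 3 or 6-week replicate 3 at 3 and at 6 weeks (adjusted p of 0.00642 to 0.0497), and in males at 6 weeks without 6-week replicate 4 (adjusted p = 0.0406). With all libraries kept, female *S100a13* passed at 6 weeks in edgeR (adjusted p = 0.0465) and in DESeq2 (adjusted p = 0.0364). With values scaled to a sum of 1000000 it passed at 1, 3 and 6 weeks (adjusted p = 0.03295, 0.00901 and 0.00299). The same scaling turned 3 other values at 1 week into calls, those of female *S100a11* (adjusted p = 0.01396) and of male *S100a1* (adjusted p = 0.02304) and *S100a8* (adjusted p = 0.0339).

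Comparing the weeks with one another asked whether the family moves over time after induction. Age and time after tamoxifen go along with that time and cannot be told apart from it. No member passed between weeks in limma in either sex, for 3 weeks against 1, 6 against 1 or 6 against 3. Over all genes 0.0118%, 0.13% and 0.0% were higher and 0.00591%, 0.0354% and 0.0% lower in males in these comparisons, and 0.165%, 0.891% and 0.0% were higher and 0.0531%, 0.142% and 0.0% lower in females. Without adjustment 7, 4 and 1 male members had p under 0.05 for 3 weeks against 1, 6 against 1 and 6 against 3, and 2, 4 and 2 female members had. EdgeR called none, and DESeq2 called 4 male changes and 1 female change. Shares of all genes by unadjusted p, edgeR and DESeq2 are not given here, so these counts have no background to be read against. The male changes in DESeq2 were *S100a1* (-0.51, adjusted p = 0.0136), *S100a6* (-0.63, adjusted p = 0.00955) and *S100a13* (-0.65, adjusted p = 0.0222) at 3 weeks against 1 and *S100a9* at 6 weeks against 1 (-2.02, adjusted p = 0.0366), and the female change was *S100a9* at 6 weeks against 1 (-1.83, adjusted p = 0.04). In limma the female values for 6 weeks against 1 were -1.203 for *S100a9* (adjusted p = 0.0594) and -1.06 for *S100a8* (adjusted p = 0.0671). Both passed without control replicate 1, 1-week replicate 2 or 6-week replicate 1 (adjusted p of 0.0117 to 0.0453) and with a pseudocount of 2 (adjusted p = 0.0435 and 0.0478), and *S100a9* with values scaled to a sum of 1000000 (adjusted p = 0.0494). With replicate number as a block in the fit both passed too (adjusted p = 0.034 for *S100a9* and 0.0373 for *S100a8*). For 3 weeks against 1, female *S100a8* passed without 1-week replicate 2 (adjusted p = 0.0495) and male *S100a9* without 1-week replicate 4 (adjusted p = 0.0494).

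As a description over 18 male and 20 female libraries, *S100a4* and *S100a6* had a Pearson r of 0.884 in males and 0.945 in females on the log2 scale. *S100a8* and *S100a9* had 0.786 and 0.900, and each was the most alike to the other among 16627 genes by the lower of the male and female r. The genes most alike to *S100a4* were *Csrp2*, *Gm13456* and *Trem2*, with lower r of 0.928, 0.919 and 0.916. Those most alike to *S100a6* were *Tspo* (0.957), *Clic1* (0.954) and *Eef1a1-ps1* (0.954). For *S100a11* they were its copy *Gm12854* (0.970), *Rab5c* (0.942) and its copy *Gm7665* (0.942), and for *S100a13* they were *Rps20* (0.903), *Rps3a2* (0.884) and *Gm12751* (0.871). *S100a1* was most like *Mrpl58* (0.871), *Ndufa13* (0.844) and *Hint2* (0.829), and *S100a16* most like *Puf60* (0.778), *Rhoc* (0.771) and *Rnf41* (0.743). *S100a10* and *S100b* had no gene above 0.502 and 0.565. These points share the groups, the scaling and the libraries.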

How the data were processed

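PolyA RNA of 40 mouse hearts was sequenced. The authors aligned reads to GRCm39 with STAR, counted them with featureCounts and deposited 1 table per sex, whose signal values are in CPM. Per the values, 100.0% lie within 0.001 of a whole read times 1 factor per library, so whole reads were recovered. The rule by which genes with few reads had been removed is not given in the sources used here.

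Groups came from the labels, and 2 male libraries with contradicting labels were left out. Values as log2(CPM + 0.5) were tested by limma (version 3.58.1, R 4.3.3, trend fitted to the variance) for genes of at least 0.5 in at least 3 libraries, with the 5 groups of a sex in 1 fit and Benjamini-Hochberg adjustment over all genes. Fold changes on this scale understate the change of low genes. All comparisons with controls share the controls. Alternatives were pseudocounts of 0.1 and 2, other filters and scalings, edgeR 4.0.16 and DESeq2 1.42.0 on recovered reads, 2 groups only, a replicate block and leaving out replicates. The fit was tested on simulated data. Replicates are separate mice, and the lowest chi-square per gene between replicates was 12.5 over 24 male and 7.04 over 30 female pairs. Copies were found with blastn 2.17.0 (at least 200 bases at 80%). The named genes are the members, *Il11*, the lists, and the 3 genes most alike to each member. Members and lists were chosen with earlier results of these data known. Gene positions and sequences are from GENCODE on GRCm39.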

Additional observations from a re-analysis of the deposited data

Results flagged for a closer look

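Of 80 sets of 4 replicates of a member, 6 held a library that stood apart from the other 3 by a gap test, which by chance picks out about 1 in 20 sets. These were *S100a4* at 4.934 CPM in male replicate 2 at 1 week, *S100a9* at 0.5116 CPM in male replicate 2 at 3 weeks and *S100a16* at 39.24 CPM in male uninduced replicate 3. In females they were *S100a9* at 1.808 CPM in control replicate 1, *S100a11* at 52.54 CPM in uninduced replicate 3 and *S100b* at 2.878 CPM in replicate 2 at 6 weeks.

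For 3 members every library of one sex moved one way from the mean of its controls and every library of the other sex the other way. At 1 week *S100a1* differed from control by 0.436 for males and by -0.217 for females on the log2 scale. For *S100a10* at 6 weeks the values were 0.385 and -0.189, and for *S100b* in uninduced hearts 0.308 and -0.249. The difference between the sexes was not tested, since the tables were scaled separately.

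The 2 male libraries whose title and description contradict each other entered no comparison, and each held members above the highest of the 3 male controls. The library titled as a control had 1.272 CPM of *S100a4*, 26.95 of *S100a6*, 28.31 of *S100a10*, 55.3 of *S100a11*, 12.35 of *S100a13* and 1.026 of *S100b*. The library titled as 6 weeks had 16.28 CPM of *S100a6*, 29.13 of *S100a10*, 11.54 of *S100a13* and 30.13 of *S100a16*. *Il11* was 511 CPM in the former and 0.597 CPM in the latter.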

How the results depend on the processing

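Of the 50 calls of members, 27 were kept under every alternative listed under the methods that tested them, other than a demand for a log2 fold change of at least 1. The filter of at least 1 CPM in at least 4 libraries tested 48 of the 50 calls. It left out male *S100a9*, whose call at 1 week against uninduced hearts is among the 27. No log2 fold change of a called member turned its sign under any alternative run. With the demand for a log2 fold change of at least 1 the calls against control went from 14 to 8 in males and from 15 to 5 in females, and those against uninduced hearts from 11 to 6 and from 10 to 2. Leaving out each replicate number in turn gave 6 to 14 calls against control in males and 11 to 13 in females, 7 to 10 and 5 to 11 against uninduced hearts, 0 to 1 for uninduced males against control and 0 to 2 between weeks in females. Between weeks, where limma called 0, DESeq2 called 4 in males and 1 in females, and in females a pseudocount of 2 gave 2 and scaling to a sum of 1000000 gave 1. DESeq2 called 1 member in uninduced males against control. Leaving out male replicate 4 at 1 week, an alternative chosen after seeing the data as were the added copies and the single libraries, gave 1 call between weeks in males. Shares of all genes called under these alternatives are not given here, so these counts have no background to be read against. The cause of these shifts was not tested, except that fewer samples entered where libraries were left out.

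The labels do not say whether replicate numbers pair libraries. The residuals of same-numbered libraries had a mean correlation of 0.0132 in males (33 pairs, from -0.134 to 0.256). In females it was 0.0255 (40 pairs, from -0.342 to 0.563). Libraries of unlike number had means of -0.0041 in males and -0.0085 in females. With a replicate block the calls against control were 10 in males and 16 in females, those against uninduced hearts 11 and 10, and those between weeks 0 and 2. The share of all genes called with this block is not given here either. *S100a8* and *S100a9* had at most 67 reads in any library, which limits what their values can show.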
